A study of Mus musculus with 12 samples.

Results

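H19, Igf2, Afp, Gpc3, Dlk1, Cd24a, Sox9, Meg3, Peg3 and Spink1 are 10 genes of fetal liver, of genomic imprinting and of liver regrowth. They were chosen by symbol from the 27022 genes of the count table, with earlier results of these libraries known. Their values by diet, and the test results given with them, are therefore a description only. The livers came from 6 female SJL/J mice without any transgene or induced mutation in the labels. The mice arrived at 3 weeks of age. At 11 weeks all were fasted from the early morning, and tissue was taken around midday after perfusion. The 3 control mice ate AIN-93G diet with 50 ppm iron throughout, and the 3 iron-loaded mice were moved at 6 weeks of age to a diet with 2% carbonyl iron. Each diet was fed in a single cage, and diet and cage cannot be told apart. Each RNA, 1 µg per library, gave 1 Trad-KAPA library, in which fragmented mRNA is read along the whole transcript, and 1 3’-LEXO library, in which reads start near the poly(A) end. Mouse numbers are the same in both kits, and the 12 libraries held between 10724672 and 16553616 counts.

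In the fetus the liver makes blood cells and grows quickly, and it expresses a set of genes that are turned down after birth. Afp, H19 and Gpc3 belong to this set, and in adult rodents they are known to return in regrowing or cancerous liver. H19, Igf2, Dlk1, Meg3 and Peg3 are imprinted, meaning that only the copy from 1 parent is expressed: H19 and Meg3 are noncoding RNAs of the maternal copy, and Igf2, Dlk1 and Peg3 are expressed from the paternal copy. Sox9 and Cd24a mark bile duct and progenitor cells, and Spink1 encodes a secreted inhibitor of trypsin that is known from the pancreas and from injured liver.

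The labels were checked first. The mean of the iron hormone transcript Hamp was higher in the iron-loaded livers in both kits, at 1141 ± 162 against 214 ± 261 CPM (counts of a gene per 1000000 counts of its library, mean ± SD, n = 3) in Trad-KAPA and 1418 ± 190 against 236 ± 253 CPM in 3’-LEXO. Control mouse 1 stood apart within its diet, with 515 CPM of Hamp in Trad-KAPA where the other control mice had 44.0 and 83.2. By edgeR, Hamp was called in 3’-LEXO (adjusted p = 0.0424) and not in Trad-KAPA (adjusted p = 0.0667). Of the 5 iron response genes, all tested with Trad-KAPA, 3 were called higher there. With 3’-LEXO 2 of the 4 tested were called higher, and Bmp6 did not pass the filter on low counts. The call of Hamp was lost in 3’-LEXO without control mouse 2 or 3 or iron-loaded mouse 2 or 3, and gained in Trad-KAPA without control mouse 1. Iron-loaded mouse 1 stood apart as well: the counts of iron-loaded mice 2 and 3 differed by a chi-square per degree of freedom of 6.37 with Trad-KAPA and 6.26 with 3’-LEXO, and those of mouse 1 differed from them by 53.7 to 64.9. The hepatocyte genes took 120763 to 159373 CPM in the Trad-KAPA libraries and 48410 to 72970 CPM in the 3’-LEXO libraries, lowest in iron-loaded mouse 1 in each kit. Values that rest on these mice are therefore given below with and without them where they change.

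H19, a spliced noncoding RNA on chromosome 7 (142575529 to 142578143, minus strand, GRCm38), was the member with the largest difference between the diets. In Trad-KAPA it was at 2.24, 3.08 and 1.66 CPM in control mice 1, 2 and 3, and at 25.8, 79.6 and 79.2 CPM in iron-loaded mice 1, 2 and 3. In 3’-LEXO the same mice had 3.93, 3.36 and 1.91 CPM on the control diet and 17.4, 71.0 and 66.3 CPM on the iron-loaded diet. Every iron-loaded library lay above every control library in both kits, and iron-loaded mouse 1 was the lowest of its diet in both. The fitted log2 fold change was 4.67 ± 0.49 (SE) with Trad-KAPA, which is 25.4-fold, and 4.03 ± 0.52 in 3’-LEXO, which is 16.3-fold. Without iron-loaded mouse 1 it was 5.05 and 4.44, and the fits that left out 1 mouse gave 4.42 to 5.05 with Trad-KAPA and 3.71 to 4.44 with 3’-LEXO.

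H19 is also the precursor of a microRNA pair. Both mature sequences lie in exon 1 of 5 and are shown because they are the part of the transcript with a known small RNA product, with the seed, bases 2 to 8, in capitals (RefSeq, GRCm38.p6, minus strand of chromosome 7).
miR-675-5p at chr7:142577112-142577133: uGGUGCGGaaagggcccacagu
miR-675-3p at chr7:142577078-142577099: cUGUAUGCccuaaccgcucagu
The seeds differ, so the pair does not form 1 seed family. Neither kit measures mature microRNAs, and the H19 values above are those of the polyadenylated transcript. Of the 50-base stretches of H19 transcripts, 2.96% are also found in Mir675 or in gene models on the other strand, Gm27483 and Gm27786, and whether the authors counted by strand is not given in the sources used here.

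Igf2, the fetal growth factor gene that lies upstream of H19 and shares enhancers with it, did not move apart between the diets. Its counts were 10, 10 and 8 in control and 12, 6 and 13 in iron-loaded mice in Trad-KAPA, and 14, 8 and 10 against 8, 6 and 5 in 3’-LEXO. The groups overlapped in both kits, and Igf2 did not pass the filter on low counts. Fitted without a filter, the log2 fold change was 0.18 ± 0.50 with Trad-KAPA and -0.57 ± 0.60 with 3’-LEXO, of opposite sign and each near or under its SE. Of the 50-base stretches of Igf2 transcripts, 62.1% are shared with Gm49394 on the same strand or Igf2os on the other, so its counts are uncertain. In each iron-loaded library H19 had at least 227 reads, where Igf2 had at most 13.

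Of the 54 other annotated genes of the table within 250 kb of a member, 15 were tested in Trad-KAPA and 18 in 3’-LEXO. By edgeR, 3 of 15 were called in Trad-KAPA (adjusted p = 0.0324 for Ctsd, 0.00971 for Lsp1 and 0.0452 for Gm9958), where 17.2% of all genes tested were called. In 3’-LEXO 0 of 18 were called, where 6.08% of all genes tested were. There 4 had an unadjusted p below 0.05 and DESeq2 called 1, so none was called in both kits by edgeR. Ctsd, which encodes a lysosomal protease, and Lsp1, which encodes a white blood cell protein, lie within 250 kb of H19. The log2 fold change of Ctsd was 0.38 ± 0.10 and that of Lsp1 0.92 ± 0.16 in Trad-KAPA. With 3’-LEXO these genes had 0.22 ± 0.16 and 0.97 ± 0.27. All of these are far below the value of H19 itself.

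Dlk1 and Meg3 are the paternal and the maternal gene of another imprinted domain, on chromosome 12. Dlk1 encodes a membrane protein of fetal hepatocyte precursors. It had 1, 1 and 0 reads in control and 2, 0 and 4 in iron-loaded mice in Trad-KAPA, and 1, 1 and 6 against 3, 3 and 1 in 3’-LEXO. No library of either diet stood out, and a difference was not detectable at this depth. Meg3, a long noncoding RNA, was at 0.967, 0.737 and 0.723 CPM in control and at 0.714, 0.888 and 0.503 CPM in iron-loaded mice in Trad-KAPA. In 3’-LEXO it was at 10.003, 6.73 and 7.23 CPM against 6.37, 5.50 and 6.73 CPM, so that the groups overlapped in Trad-KAPA and just met at 6.73 CPM in 3’-LEXO. Meg3 had a log2 fold change of -0.27 ± 0.36 with Trad-KAPA and of -0.42 ± 0.21 with 3’-LEXO.

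Peg3, an imprinted zinc finger gene on the proximal part of chromosome 7, had 22.5, 23.9 and 21.8 CPM in control and 13, 25.6 and 21.4 CPM in iron-loaded mice in Trad-KAPA. Only iron-loaded mouse 1 lay clearly below the others, and the groups overlapped. Its log2 fold change was -0.24 ± 0.23 and became 0.02 without that mouse. In 3’-LEXO the values were 9.86, 12.3 and 9.08 CPM against 8.36, 8.86 and 8.54 CPM, with a log2 fold change of -0.33 ± 0.17. The groups were apart there by a narrow margin.

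Afp encodes alpha-fetoprotein, a relative of albumin that is a main plasma protein of the fetus. In Trad-KAPA it was at 0.846, 1.07 and 1.16 CPM in control mice and at 2.07, 2.87 and 3.59 CPM in iron-loaded mice. In 3’-LEXO it was at 1.79, 3.65 and 0.780 CPM against 4.14, 5.97 and 5.45 CPM. The groups did not overlap in either kit, with control mouse 2 the closest to the iron-loaded mice in 3’-LEXO. The log2 fold change was 1.41 ± 0.31 with Trad-KAPA, which is 2.65-fold, and 1.28 ± 0.43 with 3’-LEXO, where it was 1.93 without control mouse 2. Albumin itself (Alb), the adult member of this gene family beside Afp on chromosome 5, was called in neither kit. In Trad-KAPA it was at 126448 ± 6506 CPM in control mice against 119472 ± 22955 CPM in iron-loaded mice.

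Gpc3 encodes a glypican, a heparan sulfate proteoglycan anchored on the cell surface that binds growth factors. It had 0.785, 0.402 and 0.940 CPM in control and 1.79, 2.12 and 1.65 CPM in iron-loaded mice in Trad-KAPA, where the groups were apart. In 3’-LEXO it had 1.29, 1.22 and 3.12 CPM against 3.45, 2.70 and 3.82 CPM, and control mouse 3 lay above iron-loaded mouse 2. The fitted difference (log2) was 1.31 ± 0.36 with Trad-KAPA and 0.75 ± 0.40 with 3’-LEXO. Without control mouse 3 it was 1.37 in 3’-LEXO, and without control mouse 2 it was 1.02 in Trad-KAPA.

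**Figure D1:**
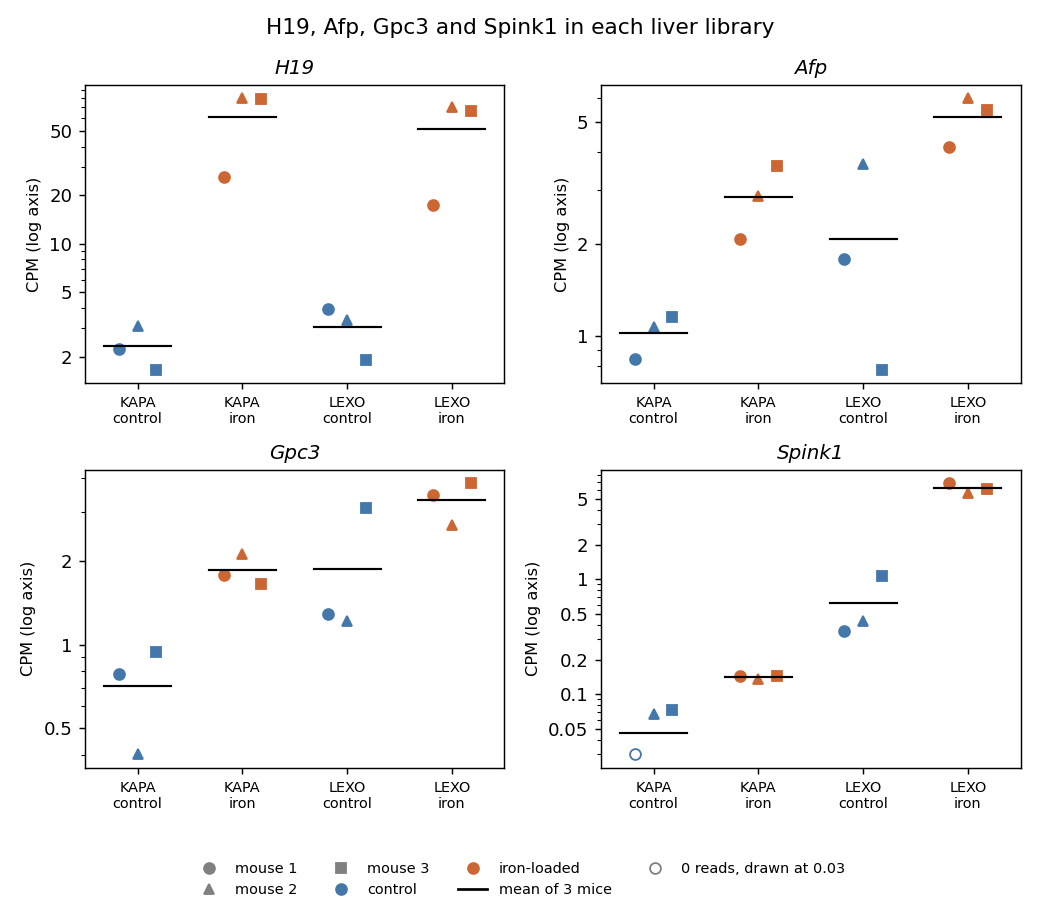
CPM of H19, Afp, Gpc3 and Spink1 in each of the 12 libraries on log axes, by kit (KAPA is Trad-KAPA, LEXO is 3’-LEXO) and diet, with the mean of 3 mice as a line. H19 and Afp of the iron-loaded mice lie above the control mice in both kits, Gpc3 in Trad-KAPA, and Spink1 in 3’-LEXO, whereas Spink1 has at most 2 reads in any Trad-KAPA library.

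The promoters of Afp and Gpc3 are shown because these fetal genes were both higher in the iron-loaded mice in Trad-KAPA and yet have promoters of different make-up. Each line runs from 250 bases before to 50 bases after the start of transcription (RefSeq, GRCm38.p6), on the strand of the gene. RefSeq entries were matched for 6 of the 10 members, Igf2, Afp, Gpc3, Dlk1, Meg3 and Peg3. Capitals mark matches to GTTAAT, the core of the site of the liver factor HNF1, to TATAAA, the letters of the TATA box, and to GGGCGG, the letters of the GC box. The last appears as CCGCCC where it lies on the other strand.
Afp at chr5:90490464-90490763, plus strand: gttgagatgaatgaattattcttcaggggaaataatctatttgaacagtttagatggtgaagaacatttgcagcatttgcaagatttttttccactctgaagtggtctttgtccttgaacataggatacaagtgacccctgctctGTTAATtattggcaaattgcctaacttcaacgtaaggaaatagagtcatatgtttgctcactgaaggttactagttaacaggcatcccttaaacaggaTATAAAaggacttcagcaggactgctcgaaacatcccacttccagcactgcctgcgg
Gpc3 at chrX:52613925-52614224, minus strand: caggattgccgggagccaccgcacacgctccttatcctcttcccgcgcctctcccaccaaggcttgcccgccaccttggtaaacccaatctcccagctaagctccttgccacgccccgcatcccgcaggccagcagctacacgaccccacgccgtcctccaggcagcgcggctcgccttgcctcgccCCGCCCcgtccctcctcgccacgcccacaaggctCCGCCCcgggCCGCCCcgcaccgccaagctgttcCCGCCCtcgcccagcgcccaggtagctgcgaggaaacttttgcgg
The Afp promoter is 40.0% G and C, with 1 GTTAAT and 1 TATAAA and no GGGCGG. These begin at -105 and -7 from the RefSeq start, which lies before the GENCODE start of Afp at 90490737. The Gpc3 promoter is 70.7% G and C, with 4 GC boxes and neither of the other motifs. Over all 32851 promoters of the table the median was 52.7% G and C. Searched on both strands, 7.10% of them held GTTAAT, 13.6% TATAAA and 35.7% GGGCGG, and 19.5% held 2 or more GC boxes. The motifs do not overlap each other as letters, and a match is a description of the sequence only.

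Spink1 is the member that was seen in 1 kit. In 3’-LEXO it had 0.357, 0.429 and 1.06 CPM in control and 6.83, 5.59 and 6.09 CPM in iron-loaded mice, which is 5, 6 and 15 reads against 89, 60 and 67. The groups were far apart, and the log2 fold change was 3.24 ± 0.38, which is 9.42-fold, and 3.90 without control mouse 3. In Trad-KAPA it had 0, 1 and 1 reads against 2, 2 and 2, at or under the floor of 3 reads in every library, so that no fold is given. The study also measured Spink1 by RT-qPCR on the same RNA. It reported a higher level with iron loading there and matched this to its 3’-LEXO value. Of the 9 exocrine pancreas markers in the table, of 18 listed, only Cela1 passed the filter, and it was called lower in both kits, at a log2 fold change of -1.43 ± 0.17 (adjusted p = 0.0033) in Trad-KAPA and -1.26 ± 0.18 (adjusted p = 0.00547) in 3’-LEXO. The pancreas list summed to 57.7 to 68.4 CPM in control and 21.8 to 33.5 CPM in iron-loaded 3’-LEXO libraries. No gene of the list other than Cela1 reached 0.740 CPM in any of these libraries, so the sum is mostly that of Cela1. The defining pancreas enzymes Prss2, Try5 and Pnlip were at a mean of at most 0.183 CPM in every group. Of the other Spink genes, 2 of 11 listed were in the table, and both were tested in 3’-LEXO alone, where edgeR and DESeq2 called 0 and 0 had an unadjusted p below 0.05.

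Sox9 and Cd24a, the bile duct and progenitor members, were not higher in the iron-loaded mice. Sox9, a transcription factor of bile duct cells, had 3.81, 3.82 and 4.26 CPM in control and 2.86, 2.19 and 3.38 CPM in iron-loaded mice in Trad-KAPA. In 3’-LEXO it had 10.4, 13.2 and 10.6 CPM against 6.75, 7.74 and 7.91 CPM. Each iron-loaded library was below every control library of its kit. Its log2 fold change was -0.57 ± 0.22 with Trad-KAPA and -0.66 ± 0.18 with 3’-LEXO.

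Cd24a encodes a small surface protein that is also known on B cells and red cell precursors. It had 1.99, 4.55 and 1.23 CPM in control and 2.21, 1.98 and 2.44 CPM in iron-loaded mice in Trad-KAPA, and 1.43, 3.36 and 1.77 CPM against 0.844, 0.559 and 1.45 CPM in 3’-LEXO. Control mouse 2 was the highest in both kits, and the groups overlapped. Its log2 fold change was -0.29 ± 0.43 with Trad-KAPA and -1.24 ± 0.45 with 3’-LEXO, and without control mouse 2 0.37 and -0.83. Of the blood cells that carry Cd24a, the 9 red cell precursor genes summed to 33.1, 82.5 and 163 CPM in control mice 1, 2 and 3 and to 32.8, 44.1 and 49.1 CPM in the iron-loaded mice in Trad-KAPA. In 3’-LEXO they summed to 177, 430 and 1224 CPM against 130, 226 and 199 CPM, so that the diets overlapped in both kits, and edgeR called 0 of the 7 tested. The 6 B cell genes summed to 54.7, 40.1 and 28.6 CPM against 18.4, 17.0 and 17.8 CPM in Trad-KAPA, where the diets did not overlap, and 1 of them, Ighm, was called. Neither sum was highest in control mouse 2, and their part in the Cd24a values was not tested. In bulk liver, fewer cells of a type and less RNA per cell cannot be told apart.

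**Figure D2:**
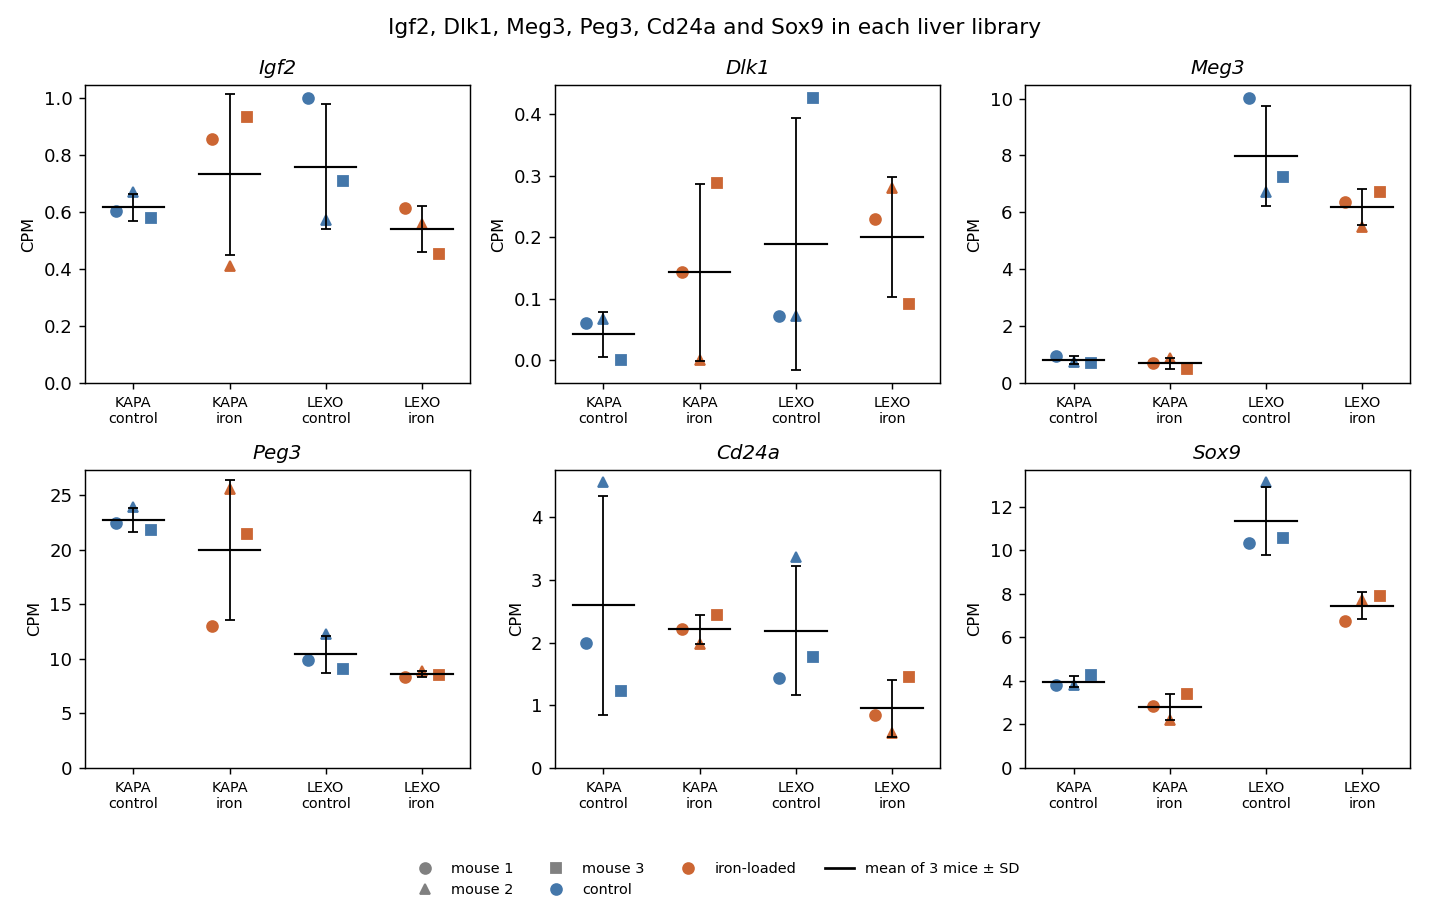
CPM of Igf2, Dlk1, Meg3, Peg3, Cd24a and Sox9 in each library, by kit and diet, with the mean ± SD of 3 mice. The diets overlap for Igf2, Dlk1 and Cd24a in both kits, and Sox9 is lower in every iron-loaded library than in every control library of its kit.

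By edgeR at an adjusted p below 0.05, 7 of the 10 members passed the filter in Trad-KAPA and 3 of them, H19, Afp and Gpc3, were called, all higher, where 17.2% of all 13151 genes tested were called, 8.79% higher and 8.36% lower. In 3’-LEXO 8 passed and 2, H19 and Spink1, were called, both higher, where 6.08% of 13301 genes were called, 3.16% higher and 2.92% lower. The members that passed had a median log2 fold change of -0.24 with Trad-KAPA and 0.21 with 3’-LEXO, against 0.02 and 0.01 over all genes tested. The diets were apart for 4 of the 7 members that passed in Trad-KAPA and for 5 of the 8 in 3’-LEXO, where 41.2% and 31.3% of all genes tested were apart. Spink1 in 3’-LEXO and Gpc3 in Trad-KAPA passed the filter through the iron-loaded libraries alone, as 1 and 2 of the 3 control libraries reached the level it asks for, whereas H19 and Afp reached it in every library of the kits in which they were called. Since the members were chosen with these values known, nothing is read from these counts. The calls of Afp and Gpc3 in Trad-KAPA were lost when control mouse 1, 2 or 3 or iron-loaded mouse 2 or 3 was left out, which left H19 as the only call, and were kept without iron-loaded mouse 1. Gpc3 was also not called there by DESeq2 or with replicate numbers as a block, and DESeq2 called Afp in 3’-LEXO as well.

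**Figure D3:**
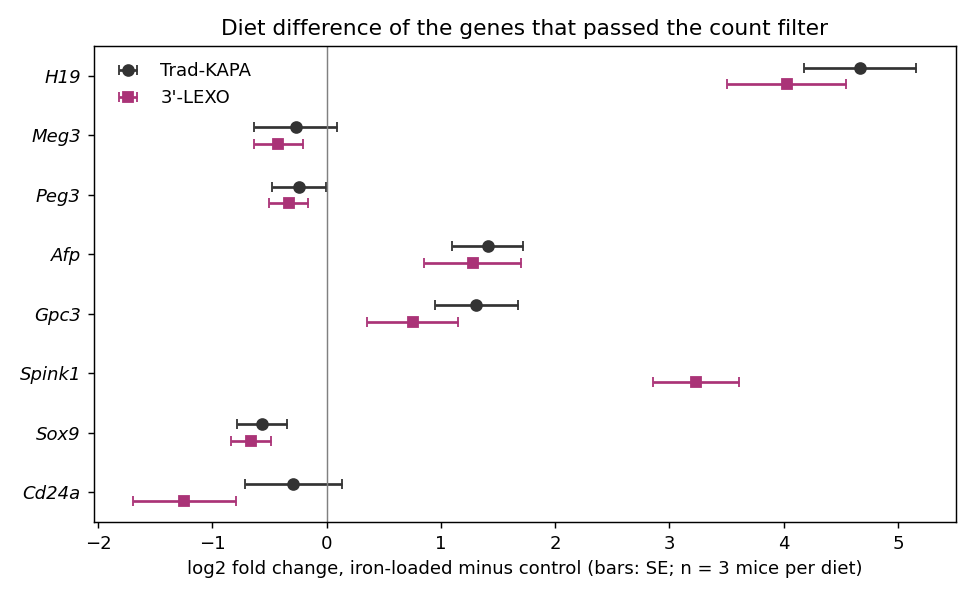
Fitted log2 fold change, iron-loaded minus control, with its SE, for the members that passed the filter in each kit. H19 stands highest at 4.67 and 4.03, Spink1 has a 3’-LEXO value alone at 3.24, and Sox9, Cd24a, Meg3 and Peg3 lie below 0 in both kits.

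Whether the diet difference itself differed between the kits was asked over the 12 libraries, taken as independent although the kits share mice. An interaction term was fitted to them together. It was called for 0 of 14384 genes by edgeR, which is 0%, with 403 genes at an unadjusted p below 0.05. DESeq2 also called 0, and edgeR called 5 with the mouse as a block and 7 without a filter. No member was called under any of these. The difference, 3’-LEXO minus Trad-KAPA, was -0.65 ± 0.80 (log2) for H19, -0.13 ± 0.57 for Afp, -0.56 ± 0.58 for Gpc3, -0.09 ± 0.27 for Sox9 and -0.95 ± 0.67 for Cd24a. It was -0.71 ± 0.57 for Igf2, -0.16 ± 0.40 for Meg3 and -0.09 ± 0.30 for Peg3. For Spink1 it was 1.80 ± 1.39, with the Trad-KAPA side at or under the floor of 3 reads. These errors allow sizeable differences for the low genes.

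The level was compared between the kits as well, again over 12 libraries taken as independent. Because Trad-KAPA gives long transcripts more reads, its counts were divided by the length of the merged exons, and 78.3% of 14368 genes then differed between the kits by edgeR at an adjusted p below 0.05. Meg3 had the largest difference among the members, with 39.1-fold more in 3’-LEXO (log2 5.29 ± 0.18, adjusted p = 1.86e-12). Its merged exons span 18089 bases over many isoforms, and without division by length the log2 difference was 3.21. Gm26906 overlaps its exons on the other strand, and 10.4% of the 50-base stretches of Meg3 are shared with other genes, so the reads behind its 3’-LEXO level are uncertain.

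Sox9 was also higher in 3’-LEXO (1.43 ± 0.13, adjusted p = 6.17e-08), and Cd24a was lower (-1.37 ± 0.34, adjusted p = 0.00166). Cd24a shares 2.75% of its stretches with the copy Gm6212. Peg3, with merged exons of 13324 bases, was higher per length (0.47 ± 0.15, adjusted p = 0.00827), and without division by length it was lower (-1.17, adjusted p = 2.85e-06), so that its direction rests on the length used. With the length of the longest transcript the Peg3 value was 0.24 (adjusted p = 0.142). H19 (-0.82 ± 0.37, adjusted p = 0.0559), Afp (0.59 ± 0.28, adjusted p = 0.0650), Gpc3 (0.43 ± 0.29, adjusted p = 0.179) and Igf2 (0.39 ± 0.29, adjusted p = 0.227) did not pass. With the mouse as a block, H19 (-0.93, adjusted p = 5.34e-07) and Afp (0.57, adjusted p = 0.0192) did, and so did H19 without iron-loaded mouse 1 (-0.74, adjusted p = 0.000444) and Afp without control mouse 3 (0.75, adjusted p = 0.0165). Over all refits of the members’ kit values, with other lengths among them, 84 kept their result, 8 came to pass, 2 no longer passed and 1 reversed. No test is given for Spink1, which was picked in the study for its difference between the kits and whose Trad-KAPA reads are at or under the floor, and Dlk1 had too few reads.

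**Figure D4:**
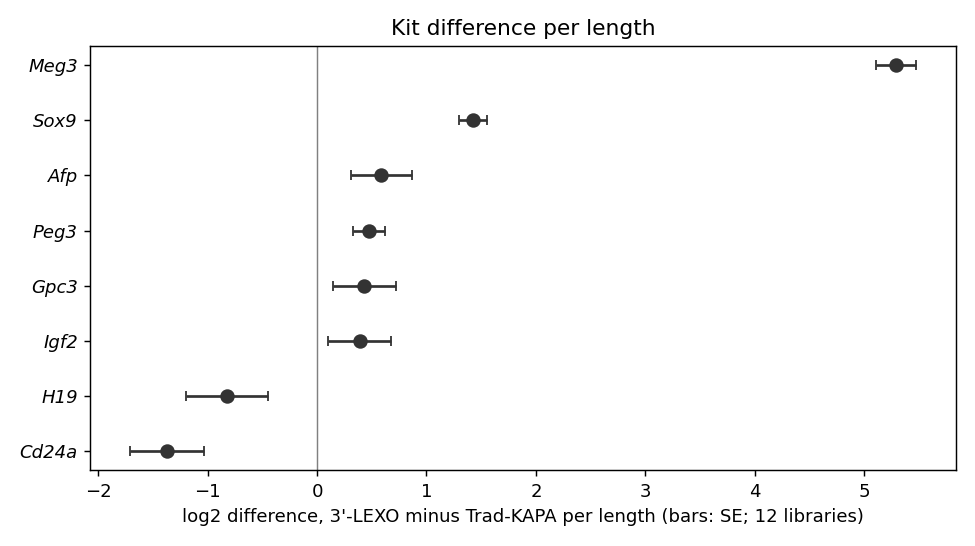
Log2 difference between the kits, 3’-LEXO minus Trad-KAPA per length, with its SE, over 12 libraries. Meg3 lies far to the right at 5.29, Sox9 at 1.43, and H19 and Cd24a to the left of 0.

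Per length, Peg3 was the most abundant member in control liver in Trad-KAPA, at 1.71 ± 0.08 RPKM (CPM per kilobase of merged exons, mean ± SD, n = 3). Cd24a (1.00 ± 0.68), Sox9 (0.958 ± 0.063) and H19 (0.946 ± 0.290) followed, did not differ beyond their spread, and the spread of Cd24a overlapped that of Peg3. Afp (0.304 ± 0.048) and Gpc3 (0.264 ± 0.103) overlapped as well, and Igf2 (0.108 ± 0.008), Spink1 (0.064 ± 0.055), Meg3 (0.045 ± 0.008) and Dlk1 (0.0075 ± 0.0065) were lowest. In the iron-loaded mice H19 was first at 25.0 ± 12.6 RPKM, and Peg3 (1.5 ± 0.48), Cd24a (0.858 ± 0.090) and Afp (0.845 ± 0.226) came next. Gpc3 (0.688 ± 0.089) and Sox9 (0.679 ± 0.145) overlapped with Afp, followed by Spink1 (0.193 ± 0.005), Igf2 (0.128 ± 0.049), Meg3 (0.039 ± 0.011) and Dlk1 (0.025 ± 0.025).

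A 3’-LEXO read count does not scale with length, so CPM stands for the level there. In control liver Sox9 (11.4 ± 1.6 CPM), Peg3 (10.4 ± 1.7) and Meg3 (7.99 ± 1.76) were highest, each overlapping with the next, and H19 (3.07 ± 1.04), Cd24a (2.19 ± 1.03), Afp (2.07 ± 1.46) and Gpc3 (1.87 ± 1.08) overlapped below them. Igf2 (0.761 ± 0.219), Spink1 (0.617 ± 0.389) and Dlk1 (0.189 ± 0.204) came last. In the iron-loaded mice H19 (51.5 ± 29.7) was first, ahead of Peg3 (8.59 ± 0.25), Sox9 (7.47 ± 0.63), Meg3 (6.20 ± 0.63), Spink1 (6.17 ± 0.62) and Afp (5.19 ± 0.94). Meg3, Spink1 and Afp overlapped there, as Spink1 did with Igf2 and Dlk1 in control liver, and Gpc3 (3.32 ± 0.57), Cd24a (0.952 ± 0.457), Igf2 (0.542 ± 0.081) and Dlk1 (0.200 ± 0.098) followed.

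The genes around the members were described by lists, of which all genes are counted and at most 4 are named. Of 58 other imprinted genes, 49 were in the table and 36 passed the filter in each kit. In Trad-KAPA 3 were called higher and 2 lower (median log2 fold change 0.02), and in 3’-LEXO 2 higher and 1 lower (median 0.09). Impact, which encodes a regulator of the amino acid stress response, rose in both kits, by 0.76 ± 0.17 (adjusted p = 0.0214) and 0.77 ± 0.20 (adjusted p = 0.0480). Ddc, which encodes dopa decarboxylase, fell in both, by 1.13 ± 0.21 (adjusted p = 0.0122) and 1.12 ± 0.23 (adjusted p = 0.0258). Grb10, an inhibitor of insulin and IGF receptor signalling, rose in Trad-KAPA (0.93 ± 0.14, adjusted p = 0.00628), with 0.50 ± 0.18 (adjusted p = 0.130) in 3’-LEXO. Leaving out 1 mouse gave 2 to 5 calls in Trad-KAPA and 0 to 2 in 3’-LEXO, the latter with 0 without control mouse 2 or 3. The other higher call in 3’-LEXO was Phlda2, which passed the filter through the iron-loaded libraries alone, so its call is read as no support for the list.

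Of the 18 genes of the IGF axis, 17 were in the table and 14 passed the filter in each kit. Igfbp1, a liver binding protein of IGFs that responds to stress and fasting, rose in both kits, by 3.27 ± 0.66 (adjusted p = 0.0158) and 3.21 ± 0.60 (adjusted p = 0.0170). It was at 1367, 256 and 258 CPM in iron-loaded mice 1, 2 and 3 in Trad-KAPA, against 45.6 to 84.3 CPM in the control mice, so that mouse 1, lowest in H19, was here the highest. Without iron-loaded mouse 1 the log2 fold change was 2.05 in both kits (adjusted p = 0.0012 and 0.000705), a 4.15-fold and a 4.14-fold difference in place of 9.63 and 9.25. Igfbp3 (-0.93 ± 0.15, adjusted p = 0.00722) and Irs1 (-0.61 ± 0.16, adjusted p = 0.0366) fell in Trad-KAPA. With 3’-LEXO they were at -0.62 ± 0.19 (adjusted p = 0.0799) and -0.62 ± 0.19 (adjusted p = 0.0839), and Igfbp1 was the only call. Without any 1 of the control mice it was 0 calls in 3’-LEXO, and Trad-KAPA had 1 without control mouse 2.

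Liver factors and albumin family genes, of which Zhx2, Zbtb20 and Zfhx3 are known to hold down Afp after birth, all passed the filter. Of these 15 genes, 1 was called higher and 2 lower in Trad-KAPA (median -0.21), and 0 higher and 2 lower in 3’-LEXO (median -0.16). Over all genes tested 17.2% and 6.08% were called. Foxa2, a hepatocyte transcription factor, fell in both kits, by 0.68 ± 0.20 (adjusted p = 0.0479) and 0.88 ± 0.21 (adjusted p = 0.041). Foxa1 fell in 3’-LEXO (-0.97 ± 0.21, adjusted p = 0.0306), and Cebpb, a factor of the acute phase and of regrowth, rose in Trad-KAPA (0.61 ± 0.12, adjusted p = 0.0141). Zhx2, named here after its values were seen, had 14.7, 18.6 and 16.8 CPM in control and 11.1, 8.40 and 11.0 CPM in iron-loaded mice in Trad-KAPA and fell by 0.79 ± 0.15 (adjusted p = 0.0140). In 3’-LEXO, at 1.73 to 2.58 CPM, it was at -0.38 ± 0.27 (adjusted p = 0.407). Zbtb20 and Zfhx3 were called in neither kit. With Trad-KAPA there were 0 calls without control mouse 2 and 6 without iron-loaded mouse 1. With 3’-LEXO there were 0 without control mouse 3 or iron-loaded mouse 2 or 3, 1 without control mouse 1 or 2, and 4 without iron-loaded mouse 1.

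Of the 16 bile duct and progenitor markers, 11 passed with Trad-KAPA and 12 with 3’-LEXO. Of these, 2 and 4 were called higher and 0 lower (median 0.04 and 0.07), where 17.2% and 6.08% of all genes tested were called. Spp1, which encodes the secreted protein osteopontin, rose by 0.65 ± 0.12 (adjusted p = 0.0105) and 0.70 ± 0.14 (adjusted p = 0.0223), and the mucin gene Muc1 by 1.34 ± 0.30 (adjusted p = 0.0214) and 1.85 ± 0.42 (adjusted p = 0.0359). Cd44 rose in 3’-LEXO (1.01 ± 0.23, adjusted p = 0.0347). The other call there was Mmp7. Mmp7 in 3’-LEXO and Muc1 in both kits passed the filter through the iron-loaded libraries alone, so these calls are read as no support for the list. The defining bile duct keratin Krt19 was at 0.734 ± 0.116 against 0.466 ± 0.201 CPM in Trad-KAPA, control against iron-loaded, and did not pass the filter. The list summed to 220 to 283 CPM in control and 282 to 325 CPM in iron-loaded Trad-KAPA libraries, and to 450 to 688 against 609 to 670 CPM with 3’-LEXO, where the diets overlapped. In 3’-LEXO 0 were called without any 1 of the control mice, and in Trad-KAPA 1 without control mouse 2 or iron-loaded mouse 3.

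Of 13 targets of the Hippo-YAP and Notch pathways, 11 and 12 passed, and 2 and 1 were called, where 17.2% and 6.08% of all genes tested were. The Notch target Hes1 fell in both kits, by 1.26 ± 0.32 (adjusted p = 0.0327) and 1.28 ± 0.24 (adjusted p = 0.0177). The YAP target Ccn2 rose in Trad-KAPA (1.29 ± 0.26, adjusted p = 0.0164), with 1.10 ± 0.45 (adjusted p = 0.167) in 3’-LEXO, and the list medians were -0.04 and -0.07. The counts of 2 and 1 became 0 to 4 and 0 to 1 when 1 mouse was left out, with 0 in Trad-KAPA without control mouse 2 or 3 and 0 in 3’-LEXO without control mouse 1 or 2.

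Of 18 growth and proliferation genes of liver regrowth, 16 passed with Trad-KAPA and 15 with 3’-LEXO, and 3 and 2 were called higher and 0 lower. Over all genes tested 17.2% and 6.08% were called. The list medians were 0.53 and 0.38, against 0.02 and 0.01 over all genes. The proto-oncogene Myc rose by 2.74 ± 0.51 (adjusted p = 0.0126) and 2.18 ± 0.41 (adjusted p = 0.0175), and the stress factor Atf3 by 3.22 ± 0.78 (adjusted p = 0.0277) and 2.60 ± 0.57 (adjusted p = 0.0301). Myc had 42.6, 12.3 and 11.6 CPM in iron-loaded mice 1, 2 and 3 and 2.10 to 3.82 CPM in the control mice in Trad-KAPA, again highest in mouse 1. Without that mouse Myc was at 1.90 (adjusted p = 0.00095) and 1.56 (adjusted p = 0.0109), and Atf3, which passed the filter through the iron-loaded libraries alone, at 1.88 (adjusted p = 0.0055) and 1.93 (adjusted p = 0.0462). Without control mouse 1 Atf3 was at 3.22 in 3’-LEXO. Because of how it passed the filter, its calls are read as no support for the list. The cyclin gene Ccnd1 did not pass, at 1.11 ± 0.46 (adjusted p = 0.131) and 1.3 ± 0.37 (adjusted p = 0.0689). Without control mouse 3, 0 genes of the list were called in either kit, and without control mouse 2 Trad-KAPA had 1 and 3’-LEXO 0. Of the calls named for the lists from the other imprinted genes to the regrowth genes, those of Ddc, Grb10, Igfbp3 and Spp1 in Trad-KAPA held in every fit that left out a mouse, and the others were each lost in at least 1.

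**Figure D5:**
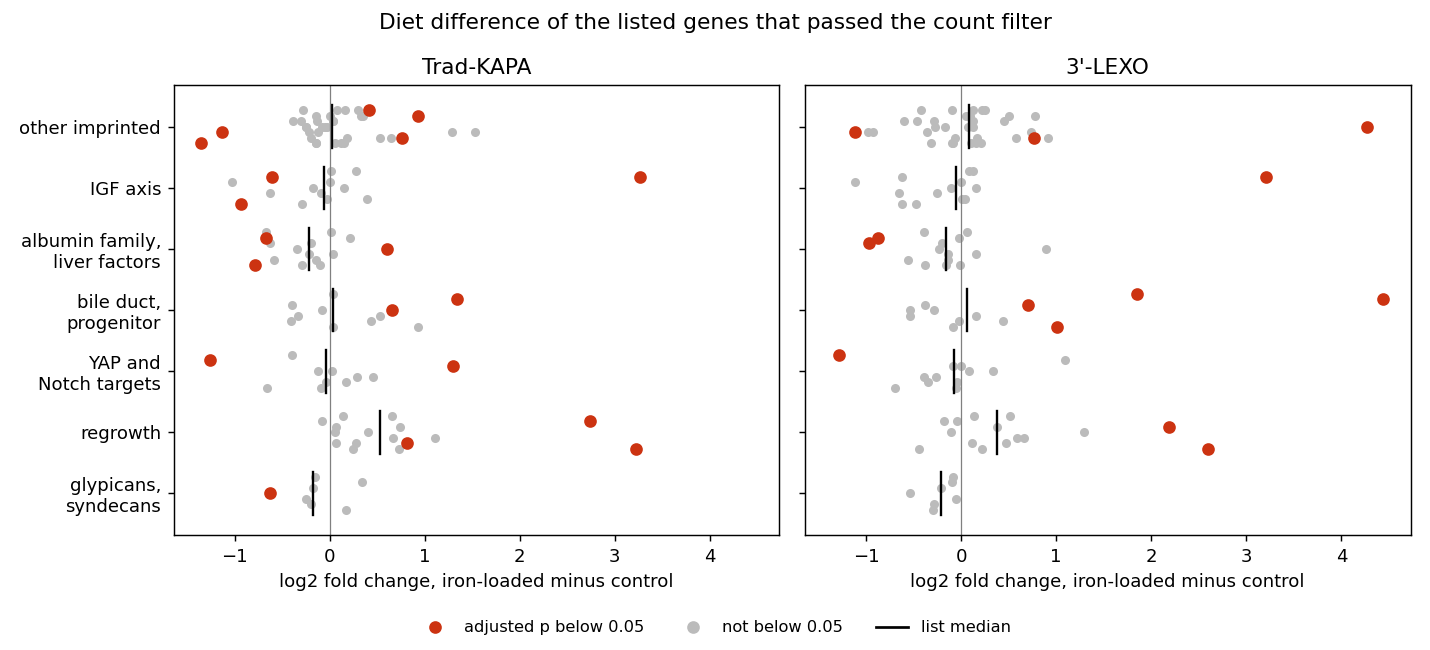
Log2 fold change, iron-loaded minus control, of the genes of 7 lists that passed the filter, in Trad-KAPA on the left and 3’-LEXO on the right. Genes with an adjusted p below 0.05 are in red, and the bar is the list median, which among the lists drawn is highest for the regrowth genes at 0.53 and 0.38.

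Other glypican genes and the syndecan genes were not called in the direction of Gpc3. Of the 8 genes found, 7 passed in each kit. The single call by edgeR was the syndecan gene Sdc1, which fell by 0.63 ± 0.10 (adjusted p = 0.00866) in Trad-KAPA. In 3’-LEXO edgeR and DESeq2 called 0 of them, and 1 had an unadjusted p below 0.05.

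Markers of other liver and blood cells were counted as well. The granulocyte genes S100a8 and S100a9 rose in both kits, 2 of 9 listed, of which 2 were tested with Trad-KAPA and 4 with 3’-LEXO, and both passed the filter in Trad-KAPA through the iron-loaded libraries alone. Their calls in Trad-KAPA are therefore a description and read as no support for the list. The call of S100a9 there held in every fit that left out a mouse. That of S100a8 in Trad-KAPA was lost without control mouse 1, 2 or 3 or iron-loaded mouse 2 or 3, that of S100a8 in 3’-LEXO without control mouse 2 or 3 or iron-loaded mouse 2 or 3, and that of S100a9 in 3’-LEXO without control mouse 2 or 3. Of 7 macrophage genes, all tested in each kit, 2 were called higher in Trad-KAPA (median 0.41) and 1 in 3’-LEXO (median 0.11), and 0 lower. Among them the receptor gene Marco rose by 3.10 ± 0.29 (adjusted p = 0.00145) and 2.82 ± 0.33 (adjusted p = 0.00232). In the B cell list Ighm, the heavy chain gene of IgM, fell in both kits. The calls of Marco and Ighm held in every fit that left out a mouse.

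Of the 6 sinusoidal endothelial genes, all tested, 2 were called higher and 0 lower in Trad-KAPA (median 0.22), and 1 higher and 1 lower in 3’-LEXO (median -0.26), so the medians had opposite signs. Lyve1, a hyaluronan receptor gene, rose by 1.77 ± 0.22 (adjusted p = 0.00376) and 1.16 ± 0.28 (adjusted p = 0.0434). The scavenger receptor gene Stab1 rose in Trad-KAPA (0.44 ± 0.12, adjusted p = 0.0349), and its relative Stab2 fell in 3’-LEXO (-0.60 ± 0.13, adjusted p = 0.0307). The list summed to 305 to 398 CPM in control and 373 to 449 CPM in iron-loaded Trad-KAPA libraries, and to 312 to 384 against 265 to 298 CPM with 3’-LEXO. The calls of Stab1 and Stab2 were lost without any 1 mouse other than iron-loaded mouse 1, and that of Lyve1 in 3’-LEXO without control mouse 1, 2 or 3 or iron-loaded mouse 1.

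Of the 7 red cell precursor genes tested, edgeR called 0, with 6 in Trad-KAPA and 4 in 3’-LEXO at an unadjusted p below 0.05 and with 0 and 1 called by DESeq2, and their median was -1.08 and -1.09. Without control mouse 1, which had the lowest control sum, the count was 4 with Trad-KAPA and 2 with 3’-LEXO. Without iron-loaded mouse 1 there was 1 call in each kit. With the replicate block 4 were called in Trad-KAPA, and with no filter on low counts 6 in each kit. Of 11 stellate cell genes edgeR called 1 lower in Trad-KAPA, lost without control mouse 1 or 2 or iron-loaded mouse 2 or 3, and 0 in 3’-LEXO, where 6 had an unadjusted p below 0.05 and DESeq2 called 1. Of 6 mesothelial genes 1 and 2 were tested, edgeR and DESeq2 called 0, and 0 had an unadjusted p below 0.05. Of 10 hepatocyte genes 1 was called lower in Trad-KAPA and 1 higher and 1 lower in 3’-LEXO. The count was 0 in Trad-KAPA without control mouse 1 or 3 or iron-loaded mouse 2 or 3 and 2 without iron-loaded mouse 1. In 3’-LEXO it was 0 without any 1 mouse other than iron-loaded mouse 1, without which it was 1, and 0 with the replicate block. The part of these cell types in the members’ values was not tested.

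For the 6 members with a mean of at least 1 CPM in both kits, the genes whose values were most alike over the 12 libraries were found by the root mean square difference of log2(CPM + 0.5), centred in each kit, among 11627 genes. For H19 they were Igdcc4 (0.681) and Smad9 (0.731), where the median over all genes was 2.09, for Afp Cyb561 (0.211) and Gstm3 (0.228), and for Gpc3 Fst (0.207) and Pparg (0.231). For Sox9 they were Akr1c6 (0.119) and Cerkl (0.125), for Cd24a Kif23 (0.287) and Tmcc2 (0.299), and for Peg3 Fam111a (0.120) and Prps2 (0.130). This likeness is a description over libraries that share mice and diets. Igdcc4 and Smad9 carried log2 fold changes of 3.80 and 4.13 in Trad-KAPA and of 3.56 and 4.23 in 3’-LEXO. These are of the same order as H19, which their choice by likeness to H19 implies. With 1 in place of 0.5 added to the CPM, Usp2 (2.88 in Trad-KAPA and 2.87 in 3’-LEXO) took the place of Igdcc4.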

How the data were processed

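RNA of 6 livers was made into 12 libraries with a stranded whole-transcript kit of KAPA (Trad-KAPA) and with the QuantSeq 3’ FWD kit of Lexogen (3’-LEXO). The count values are raw whole-number counts as deposited: the authors aligned to GRCm38 using STAR 2.5.3a and tallied reads mapped uniquely to gene exons, with duplicates kept. The counting program, its strand setting and the annotation release are not given in the sources used here. Symbols, positions and lengths came from GENCODE M21, which held 26949 of 27022 identifiers. Depth was 10724672 to 16553616 counts, so that 1 read is below 0.1 CPM and genes with few reads have wide errors.

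edgeR 4.0.16 (R 4.3.3) was used with TMM, filterByExpr, the quasi-likelihood F test and Benjamini-Hochberg adjustment over all genes, at 0.05. Iron-loaded and control libraries were compared within each kit, as the study did with DESeq2, and the interaction and the kit difference per length over all 12. P-values of the comparisons within a kit measure the spread between 3 mice of 1 cage per diet. The main fits of the interaction and of the kit difference took the 12 libraries as independent, although the kits share mice. Their p-values and SEs ignore this pairing, and the fits with the mouse as a block are the alternative. Same-numbered libraries of the kits came from 1 mouse, and their deviations from the group means correlated at r of 0.435 to 0.765 over 10326 genes. Across diets the numbers name no pairs. No libraries were counted as duplicates, since replicates differed by a chi-square per degree of freedom of at least 6.26. The scripts were tested on simulated data. Counts within 1.5 times of the reported one, and members’ fold changes within 1 SD between replicates, were taken as the same.

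The members and lists were chosen with earlier results of these data known. Named genes were the 10 members, up to 4 genes per list with the smallest larger adjusted p of the kits, neighbours within 250 kb called in both kits, and the 2 genes most like each member. Lists were other imprinted genes, the IGF axis, albumin family and liver factors, bile duct and progenitor markers, YAP and Notch targets, regrowth genes, glypicans and syndecans, Spink genes, iron response genes, and markers of exocrine pancreas, stellate, mesothelial, granulocyte, B, red cell precursor, endothelial, macrophage and hepatocyte cells. Neighbours called in 1 kit, Zhx2, the pancreas enzymes, Alb, Krt19, Phlda2 and Mmp7 were named after their values were seen. Alternatives were DESeq2 1.42.0, its size factors, other filters, replicate blocks, other lengths, another pseudocount and leaving out each mouse.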

Additional observations from a re-analysis of the deposited data

How the results depend on the processing

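The count of genes called in Trad-KAPA (2256) stayed within 1.5 times under DESeq2, other size factors, other filters and the replicate block, and ran from 841, without control mouse 2, to 2803, without iron-loaded mouse 1, when 1 mouse was left out. It was 1104 without control mouse 1, 1033 without control mouse 3, 1243 without iron-loaded mouse 2 and 1122 without iron-loaded mouse 3. In 3’-LEXO (809) it was 1313 with DESeq2, 2040 with no filter on low counts and 434 with the replicate block, and 195 to 871 with 1 mouse left out, lowest without control mouse 3 and at 321 and 259 without control mice 1 and 2 and 346 without iron-loaded mouse 3. The interaction gave 5 calls with the mouse as a replicate block and 7 with no filter, against 0, and 0 in each fit that left out a mouse. The kit difference gave 10984 to 11587 calls with 1 mouse left out. The count of members called in Trad-KAPA (3) was 1 to 3 with 1 mouse left out, and in 3’-LEXO (2) it was 5 with no filter and 2 in each fit that left out a mouse. The replicate block, whose numbers pair no mice across diets (r of -0.163 to 0.0964), changed no other total count by over 1.5 times and ended the call of Gpc3 in Trad-KAPA. The kit difference of Peg3 turned to -1.17 (log2) without division by length and to 0.24 (adjusted p = 0.142) with the length of the longest transcript. Of 165 refits of members’ fold changes 6 moved by more than the SD between replicates, and none turned the sign of a value larger than that SD. The causes of the other changes were not tested. With another pseudocount, 7 of the 12 genes most like a member were the same. Depth limits Dlk1, Igf2 and, in Trad-KAPA, Spink1.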

Other observations

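Phlda2 and Mmp7 were each called higher in 3’-LEXO and did not pass the filter in Trad-KAPA. Phlda2, an imprinted gene of the chromosome 7 domain next to that of H19 that restrains placental growth, was at 0, 0 and 0.142 CPM in control and at 0.767, 1.86 and 0.818 CPM in iron-loaded mice in 3’-LEXO. In Trad-KAPA it was at 0.0604, 0 and 0 CPM against 0.286, 0.410 and 0.431 CPM, so the groups were apart there as well. Mmp7, a matrix protease of bile duct and other epithelial cells, was at 0.143, 0.0716 and 0 CPM in control and at 3.45, 0.932 and 1.00 CPM in iron-loaded mice in 3’-LEXO. In Trad-KAPA it was at 0.0604, 0 and 0.434 CPM against 2.21, 0.547 and 0.359 CPM, and the groups overlapped. The control libraries of both genes were at or under the floor of 3 reads in 3’-LEXO, so no fold is given. Both passed the filter there through the iron-loaded libraries alone, and their calls are given as a description.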
